A study of Mus musculus with 115 samples.

Results

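The genes described here set how much glucose the liver releases, how glucose enters cells and how the insulin signal is passed on. They were chosen by name as every probe on the array carrying 1 of 9 gene symbols: G6pc, Pck1, Fbp1, Pklr, Insr, Irs1, Irs2, Slc2a2 and Slc2a4. These 9 genes of 18120 symbols had 13 of the 25697 probes, with 3 probes each for Pklr and Slc2a2 and 1 for each other gene. Illumina BeadChips read the RNA of liver and inguinal fat (the subcutaneous adipose depot of the groin) from mice of a C57BL/6J background. In these mice Sry, the gene that makes a testis, is deleted from the Y chromosome (allele Srydl1Rlb), and the transgene TgSry2Ei can supply it from another chromosome. XX and XY- mice lack the transgene and form the ovary line, and XXSry and XY-Sry mice carry it and form the testis line. All animals had their gonads removed at 75 days of age and received a Silastic capsule at once, so no group had gonads when tissue was taken 3 weeks later. The capsule was blank (B), held testosterone (T, 5 mM) or held estradiol (E, 50 µg). Liver had 60 arrays, 5 in each of 12 groups of genotype and capsule. Adipose tissue had 55 arrays: 3 for XX B, 4 each for XXSry E, XX T and XY-Sry B, and 5 for each of the other groups. The design asks how hormone and gonad type act on these genes when the sex chromosomes are balanced, and whether they act alike in liver and fat. Every testis line mouse carries the transgene and no ovary line mouse does, so gonad type and transgene cannot be told apart.

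Liver makes glucose during fasting through gluconeogenesis. Pck1 encodes the cytosolic phosphoenolpyruvate carboxykinase that commits carbon to this route, Fbp1 encodes fructose bisphosphatase 1, and G6pc encodes the catalytic subunit of glucose 6-phosphatase, which frees glucose for export. Pklr encodes the pyruvate kinase of liver and red cells, which works in the opposite direction as the last step of glycolysis. Slc2a2 encodes GLUT2, the transporter through which hepatocytes exchange glucose with blood. Slc2a4 encodes GLUT4, which insulin moves to the surface of fat and muscle cells. Insr encodes the insulin receptor, and Irs1 and Irs2 encode the adaptor proteins that carry its signal onward. Insulin and the fasting hormones act strongly on transcription of Pck1, G6pc and Irs2, and carbohydrate feeding raises transcription of Pklr.

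The upstream stretches of the 4 genes that differed with testosterone in liver are shown first, because all of them passed the test in the same contrast. They are the 250 bases before the annotated start, 5′ to 3′ on the strand of the gene, from RefSeq (GRCm38.p6), which held starts for 7 of the 9 genes. Capitals mark matches to the motifs searched, on both strands. G6pc lies on chr11:101367466-101367715 (plus strand), Pck1 on chr2:173152823-173153072 (plus strand), the second of 2 listed Pklr starts on chr3:89136373-89136622 (plus strand) and Irs2 on chr8:11008930-11009179 (minus strand).
G6pc: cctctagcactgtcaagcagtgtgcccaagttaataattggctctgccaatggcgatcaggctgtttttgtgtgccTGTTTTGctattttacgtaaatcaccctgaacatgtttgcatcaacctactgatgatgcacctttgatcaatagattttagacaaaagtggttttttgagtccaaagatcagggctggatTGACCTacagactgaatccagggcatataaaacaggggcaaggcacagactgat
Pck1: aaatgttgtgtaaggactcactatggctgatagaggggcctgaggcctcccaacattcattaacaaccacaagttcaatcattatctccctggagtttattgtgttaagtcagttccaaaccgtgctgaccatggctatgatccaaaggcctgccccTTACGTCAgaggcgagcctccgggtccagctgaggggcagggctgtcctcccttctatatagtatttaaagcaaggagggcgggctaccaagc
Pklr: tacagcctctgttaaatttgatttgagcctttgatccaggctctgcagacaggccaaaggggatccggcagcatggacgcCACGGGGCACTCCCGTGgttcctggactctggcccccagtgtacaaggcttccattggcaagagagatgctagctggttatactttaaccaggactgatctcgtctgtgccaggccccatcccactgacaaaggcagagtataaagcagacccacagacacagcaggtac
Irs2: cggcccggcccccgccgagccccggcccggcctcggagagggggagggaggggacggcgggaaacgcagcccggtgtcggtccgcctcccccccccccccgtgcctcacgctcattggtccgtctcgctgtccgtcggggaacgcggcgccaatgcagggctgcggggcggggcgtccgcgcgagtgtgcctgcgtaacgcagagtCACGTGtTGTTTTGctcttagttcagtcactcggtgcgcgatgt

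The G6pc stretch held the insulin response core CAAAACA in reverse, with its first base 174 bases before the start, and the nuclear receptor core AGGTCA in reverse at 54 bases. The Pck1 stretch held the cyclic AMP response element TTACGTCA at 93 bases. The Pklr stretch held the carbohydrate response element, a pair of E boxes with a spacer, at 170 bases. The first Pklr start, not shown, held only AGGTCA in reverse at 151 bases. The Irs2 stretch held the E box CACGTG at 44 bases and the insulin response core in reverse at 37 bases, with no overlap. Among 32851 promoters of the same length, 5.56% held CAAAACA, 14% AGGTCA, 0.447% TTACGTCA, 0.0396% the carbohydrate response element and 6.02% CACGTG. The FOXO core TGTTTAC (3.17% of promoters), the element TGACGTCA (1.55%) and the steroid receptor core AGAACA (16.1%) had no match in the 4 stretches. Irs1, which was not called in either tissue, also held the E box, and CAAAACA in reverse at 111 and 32 bases. These are matches of letters, and no binding was measured.

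Median raw signal of an array was 124 to 159 for liver and 130 to 230 for adipose tissue, with 31.8% to 41% and 40.3% to 49% of probes detected. A probe counted as detected on an array when its detection p-value was under 0.01. Values below are log2 intensities after background correction and quantile normalisation within a tissue, so levels are compared only within a probe. Hepatocyte markers were present in all liver arrays (mean log2 of 9 markers between 12.05 and 12.68). Of 9 adipocyte markers, Adipoq, Plin1, Cidec, Fabp4 and Retn were detected in none of the liver arrays and Lipe in 1.67% of them. Cfd was detected in 15%, Lep in 35% and Pnpla2, a lipase, in 100%. The label fields disagree for the adipose array XX E replicate 1, which was kept as estradiol. The liver arrays XY-Sry T replicate 5 and XY- E replicate 5 go against their labels in earlier results and were kept under them.

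The members divided by tissue before any contrast. In liver, G6pc, Pck1, Fbp1, Irs2 and the leading Slc2a2 probe were detected in 60 of 60 arrays and Pklr in 58. Irs1 was detected in 18, Slc2a4 in 3 and Insr in 1. In adipose tissue, Pck1, Irs2 and Slc2a4 were detected in 55 of 55 arrays, Fbp1 in 10, Irs1 in 8, G6pc in 5 and Insr in 0. The most detected Slc2a2 probe reached 2 adipose arrays and Pklr reached 1. The filter on dim probes therefore left 7 member genes for testing in liver, 6 in adipose tissue and 5 in both. Insr passed in neither tissue, Slc2a4 failed in liver, and Pklr and Slc2a2 failed in adipose tissue. A failed probe had no level that could be compared, which does not show that its transcript was missing.

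In liver under testosterone G6pc and Pck1 rose, Pklr and Irs2 fell, and Fbp1, Slc2a2 and Irs1 did not pass the test. That made 4 of 7 members called, against 19.1% of all 11317 probes tested, 8.17% higher and 10.9% lower. A call is a limma adjusted p (Benjamini-Hochberg over all tested probes) under 0.05. P-values measure the spread between these arrays, since the labels do not say how animals were sampled. In whole tissue, fewer cells of a type and less RNA per cell cannot be told apart.

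**Figure D1:**
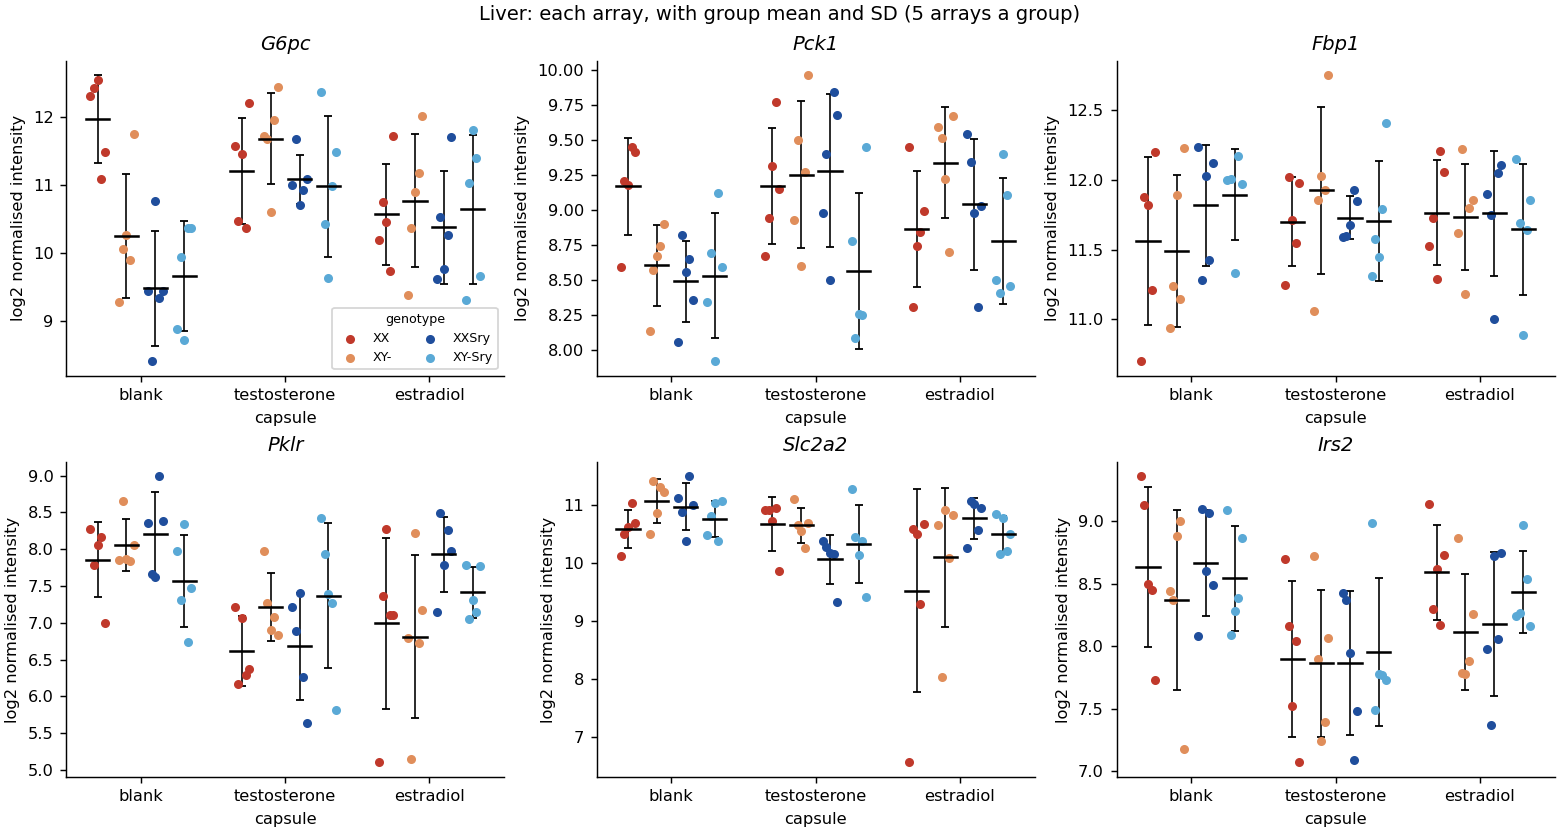
Log2 normalised intensity of 6 members in every liver array (y axis) by capsule (x axis), with genotype as colour, and black bars for the group mean and SD of 5 arrays. The blank XX arrays of G6pc stand between 11.09 and 12.54, above the blank XXSry arrays at 8.40 to 10.76, and 2 estradiol arrays stand low in both Pklr and Slc2a2.

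G6pc, the last enzyme of glucose release, ran from 8.40 to 12.54 in the 20 blank liver arrays (median 10.16), from 9.63 to 12.44 under testosterone (median 11.27) and from 9.31 to 12.01 under estradiol (median 10.49). The arms overlapped, and the blank arm was the widest. Testosterone minus blank was 0.90 ± 0.25 (log2 difference ± SE), or 1.86-fold (limma adjusted p = 0.0067). The 4 genotypes did not share the direction. XX mice differed by -0.76, against 1.43 in XY-, 1.60 in XXSry and 1.32 in XY-Sry. In the testis line alone G6pc rose by 1.46 ± 0.35, or 2.75-fold (adjusted p = 0.00365, with 9.14% of probes called), from 9.57 ± 0.78 (SD, n = 10) to 11.03 ± 0.73 (n = 10). In the ovary line the difference was 0.34 ± 0.35 (adjusted p = 0.662). The difference between these line effects was 1.12 ± 0.50 and did not pass (adjusted p = 0.824, with 0.124% of probes called), so the effects are not shown to differ. Within the 3 liver slides that held both capsules the difference ran from -0.19 to 1.26, with 2 of 3 positive.

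G6pc also differed with gonad type, and 1 group stood out. In blank mice it was 12.31, 12.42, 12.54, 11.09 and 11.48 in XX and 9.28, 10.06, 10.26, 9.89 and 11.75 in XY-. It was 9.44, 8.40, 10.76, 9.34 and 9.43 in XXSry and 8.88, 9.94, 8.71, 10.37 and 10.37 in XY-Sry. All 5 XX arrays lay above all arrays of both testis line groups, and the XY- arrays overlapped the testis line. In blank mice the testis line minus the ovary line was -1.54 ± 0.35, or 2.91-fold lower (adjusted p = 0.00637), against 1.75% of probes called in this contrast. Over all capsules it was -0.71 ± 0.20 (adjusted p = 0.0329), the only call among 7 members for gonad, where 3.40% of probes were called (0.548% higher and 2.85% lower). The sign was negative in 6 of 6 combinations of sex chromosomes and capsule, from -2.49 for XX-type mice on blank capsules to -0.12 for XY-type mice on estradiol. Within slides it ran from -1.42 to 0.10, negative in 6 of 8 slides and positive in 2. Under testosterone the line difference was -0.42 ± 0.35 (adjusted p = 1, with 0.212% of probes called) and under estradiol -0.16 ± 0.35 (adjusted p = 0.931, with 2.44% called). Mean macrophage marker signal in liver had medians of 6.84 in the testis line and 7.27 in the ovary line, and its part in this difference was not tested. The call over all capsules was close to the threshold. It was lost under median centring (-0.64, adjusted p = 0.214), without the filter on dim probes (adjusted p = 0.0809) and on leaving out any of 11 of the 60 arrays (values -0.67 to -0.64, adjusted p = 0.0507 to 0.055). Those arrays were replicates 1 and 3 of XY-Sry B, 3 of XY-Sry T, 1 and 5 of XY-Sry E, 2 of XXSry B, 1 of XXSry E, 5 of XY- B, 5 of XY- T, 5 of XX T and 5 of XX E. The difference in blank mice passed without any single array, with adjusted p up to 0.0219.

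Pck1, which commits carbon to gluconeogenesis, ran from 7.92 to 9.45 in blank liver arrays (median 8.66), from 8.09 to 9.96 under testosterone (median 9.06) and from 8.31 to 9.67 under estradiol (median 9.01). All 3 arms overlapped. Testosterone minus blank was 0.37 ± 0.13, or 1.29-fold (adjusted p = 0.0448). The genotypes gave 0.79 in XXSry, 0.65 in XY-, 0.03 in XY-Sry and 0.00 in XX, so the rise lay in 2 genotypes by value. Estradiol minus blank was 0.31 ± 0.13 (adjusted p = 0.169) and testis minus ovary line -0.29 ± 0.11 (adjusted p = 0.184). The testosterone call was lost under median centring (0.28, adjusted p = 0.404), without the filter (adjusted p = 0.0912), without both liver arrays that go against their labels (0.31, adjusted p = 0.0893) and on leaving out any of 21 of the 60 arrays. Those arrays were replicates 1 and 5 of XXSry B, 1, 3 and 5 of XY-Sry B, 1 and 5 of XY-Sry T, 2, 4 and 5 of XXSry T, 1 and 2 of XY- B, 2, 4 and 5 of XY- T, 1, 2 and 3 of XX B and 3, 4 and 5 of XX T (values 0.31 to 0.37, adjusted p = 0.051 to 0.0896). With slide as a block it was 0.48 (adjusted p = 0.00924).

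Fbp1, the enzyme between Pck1 and G6pc in the route, did not pass for any factor. It ran from 10.70 to 12.24 in blank arrays, 11.06 to 12.75 under testosterone and 10.89 to 12.22 under estradiol. Testosterone minus blank was 0.08 ± 0.14 with a 95% interval from -0.19 to 0.35, estradiol minus blank 0.04 (-0.23 to 0.31), and testis minus ovary line 0.06 (-0.16 to 0.28). The first of these changed sign with slide as a block and under median centring.

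Pklr, the pyruvate kinase of glycolysis, fell under testosterone. It ran from 6.74 to 8.99 in blank arrays (median 7.92), from 5.63 to 8.43 under testosterone (median 7.07) and from 5.10 to 8.49 under estradiol (median 7.24). The arms overlapped, with both ends of the range lower under each hormone than on blank capsules. Under testosterone it fell by 0.95 ± 0.21, a 1.93-fold difference (adjusted p = 0.000719). The second detected probe gave -0.84 ± 0.20 (adjusted p = 0.00183), and the third was detected in no liver array. All 4 genotypes were negative, at -1.53 in XXSry, -1.23 in XX, -0.85 in XY- and -0.20 in XY-Sry. The 3 slides with both capsules gave -1.23 to -0.58. The value in the ovary line was -1.04 ± 0.30 (adjusted p = 0.0204, with 7.06% of probes called) and in the testis line -0.86 ± 0.30 (adjusted p = 0.0571). The call held in all 7 alternatives to the processing and without each single array.

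Estradiol gave lower values of Pklr and of Slc2a2, the hepatocyte glucose transporter, that lay at the threshold. By limma's adjusted p 0 of 7 members passed through their leading probe, where 6.82% of all probes were called (3.55% higher and 3.27% lower), and 3 (Pck1, Pklr and Slc2a2) had an unadjusted p under 0.05. Pklr minus blank was -0.63 ± 0.21 (adjusted p = 0.0574), and its second probe passed at -0.63 ± 0.20 (adjusted p = 0.0466). Slc2a2 was -0.63 ± 0.22 by its leading probe (adjusted p = 0.0652), -0.75 ± 0.21 by a probe that passed (adjusted p = 0.0207) and -0.46 ± 0.23 by the third (adjusted p = 0.242). Both genes passed by their leading probes under median centring (Pklr -0.82 with adjusted p = 0.00553, Slc2a2 -0.83 with 0.0112) and with slide as a block (-0.82 with 0.0242, -0.86 with 0.0277). Median centring also shifted the median estradiol difference of all liver probes to -0.177. Both genes passed without the 2 arrays that go against their labels (-0.66 with 0.0351, -0.67 with 0.0408). Those 2 arrays were singled out by earlier results, so this exclusion was not chosen blind to the data. Leaving out 1 of 8 arrays also brought Pklr past the threshold (-0.72 to -0.63, adjusted p = 0.0192 to 0.0493): XY-Sry B replicate 4, XY-Sry T replicate 5, XXSry B replicate 3, XXSry E replicate 2, XY- E replicates 3 and 5, XX B replicate 5 or XX E replicate 3. For Slc2a2 it was 1 of 5 (-0.70 to -0.67, adjusted p = 0.0342 to 0.0444): XY- E replicates 3 and 5 or XX E replicates 2, 3 and 5.

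Much of this estradiol difference lay in a pair of ovary line arrays. Without both, estradiol minus blank over all genotypes was -0.41 for Pklr (adjusted p = 0.206) and -0.31 for Slc2a2 (adjusted p = 0.19). In XX E the Pklr values were 5.10, 7.36, 8.28, 7.10 and 7.11, and the Slc2a2 values were 6.56, 10.59, 10.50, 9.29 and 10.68. In XY- E the Pklr values were 6.79, 5.14, 8.22, 6.72 and 7.17, and the Slc2a2 values were 10.66, 8.04, 10.92, 10.09 and 10.83. XX E replicate 1 and XY- E replicate 2 were the lowest of their groups in both genes, and Pklr was detected in neither by either working probe. All 3 Slc2a2 probes were low there, at 5.63 to 6.56 and 6.78 to 8.37. Other members were not low in them: G6pc stood at 10.18 and 10.37, Pck1 at 9.45 and 9.51 and Fbp1 at 11.53 and 12.22. Their hepatocyte marker means were 12.30 and 12.26, inside the range of the estradiol arrays (12.05 to 12.55). Their means of 5 macrophage markers were 9.75 and 8.43, against a median of 7.64 over the estradiol arrays and 6.94 over the blank arrays. XX E replicates 2 and 3, with higher Pklr and Slc2a2, had macrophage means of 8.84 and 8.51. Whether this plays a part was not tested. In the ovary line estradiol minus blank for Pklr was -1.06 ± 0.30 (adjusted p = 0.0401, with 2.47% of probes called), and without both arrays it was -0.61 (adjusted p = 0.38). Without XX E replicate 1 alone it was -0.82 (adjusted p = 0.149), and without XY- E replicate 2 alone -0.85 (adjusted p = 0.147). Leaving out any of 10 others also ended that call, at adjusted p = 0.0544 to 0.0848: replicates 2 to 5 of XY- B, 1 and 4 of XY- E and 1 to 4 of XX B.

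Slc2a2 under testosterone ran from 9.33 to 11.29 (median 10.42), against 10.13 to 11.50 in blank arrays (median 10.87). The difference was -0.42 ± 0.22 (adjusted p = 0.175). Without the pair of low estradiol arrays the estimate was still -0.42, and it passed (adjusted p = 0.0164). That pair lies in neither arm of this contrast, and it was picked after seeing the data, where its Slc2a2 was low. Leaving it out narrows the spread of the fit and cannot change the estimate, so no testosterone effect is read from this pass. Gonad type gave 0.13 ± 0.18 (95% interval -0.22 to 0.48).

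Irs2, an adaptor of the insulin receptor, fell under testosterone in liver. It ran from 7.18 to 9.36 in blank arrays (median 8.50), from 7.07 to 8.99 under testosterone (median 7.84) and from 7.37 to 9.14 under estradiol (median 8.27). The arms overlapped over most of their range. Testosterone minus blank was -0.66 ± 0.16, a 1.58-fold difference (adjusted p = 0.00245), negative in 4 of 4 genotypes (-0.81 to -0.51) and in 3 of 3 slides (-1.02 to -0.18). Estradiol minus blank was -0.23 ± 0.16 (adjusted p = 0.475), and testosterone minus estradiol was -0.44 ± 0.16 (adjusted p = 0.0542, with 18.4% of probes called). Gonad type gave 0.03 ± 0.13 (95% interval -0.24 to 0.29). Irs1, the other adaptor, was dim throughout (4.37 to 6.04), and its testosterone difference was -0.01 (95% interval -0.35 to 0.33).

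**Figure D2:**
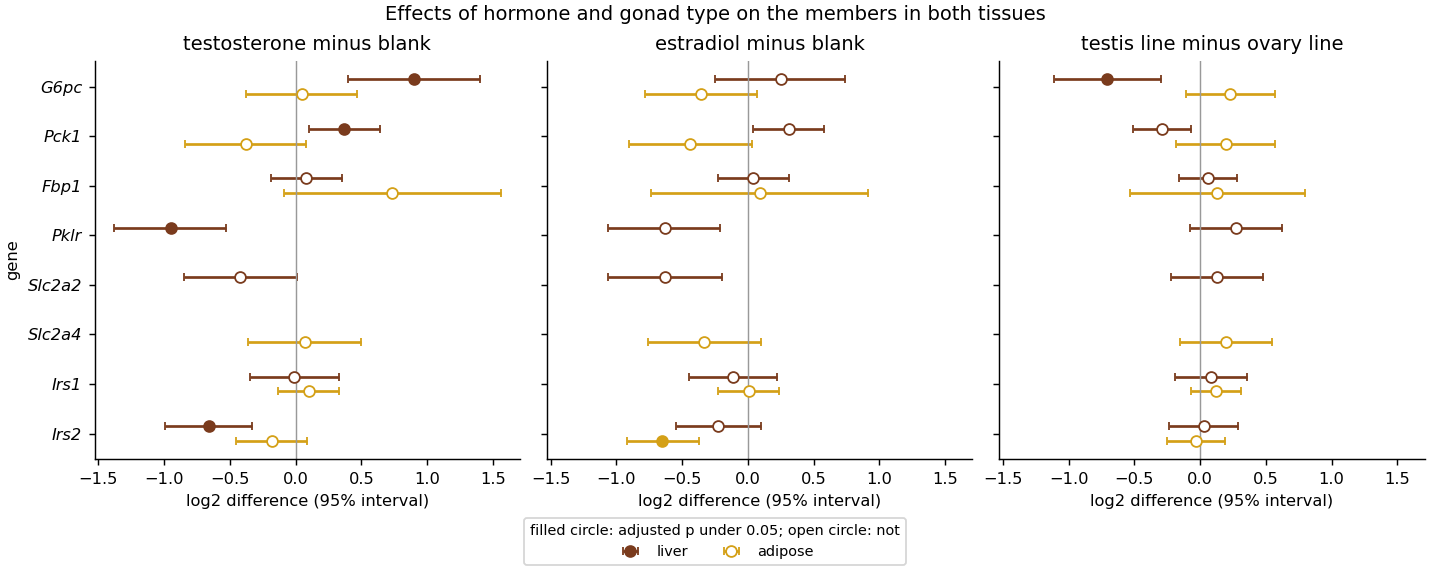
Log2 differences with 95% intervals (x axis) of the tested members (y axis) for testosterone, estradiol and gonad type, in liver (brown) and adipose tissue (yellow), filled where the limma adjusted p was under 0.05. Liver has 4 filled points for testosterone, 0 for estradiol and 1 for gonad, and adipose tissue has 1 filled point, Irs2 under estradiol at -0.65.

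The wider pathway was read from lists chosen with earlier results of these data known. These genes were refitted under 6 alternatives in liver and 8 in adipose tissue. Of 24 tested liver genes of gluconeogenesis and glycolysis, testosterone raised 2 and lowered 4, with a median difference of -0.02, against 0.003 over all probes, of which 8.17% rose and 10.9% fell. Among those that fell were Gckr, the inhibitor of glucokinase (-0.43 ± 0.11, adjusted p = 0.00358), and Pdk1, a kinase that shuts down pyruvate dehydrogenase (-0.79 ± 0.16, adjusted p = 0.00024). Of 30 genes of insulin receptor signalling, 2 rose and 3 fell (median -0.01), or 0 and 3 under median centring and without the filter. Enpp1, a membrane protein that dampens the receptor, fell by 0.80 ± 0.09 (adjusted p = 2.14e-10), and Gab1, a docking protein, fell by 0.61 ± 0.11 (adjusted p = 2.58e-05). Of 9 glycogen genes, 0 rose and 2 fell, and of 17 regulators of glucose genes 1 rose and 3 fell. Srebf1, which drives lipogenic genes, fell by 0.74 ± 0.17 (adjusted p = 0.000823). Ppargc1a also fell (-0.49) and passed in 6 of 6 alternatives. Aldoa (0.54) and Ldha (0.25) rose in the first list, Grb14 (0.37) and Pik3r3 (0.42) in the second, and Cebpb (0.48) among the regulators. These rises passed in 2 to 5 of 6 alternatives. Under median centring none of these lists had a rise. Of 3 other glucose transporters, 0 passed. Nothing particular to the lists is read from these counts beside 19.1% of all probes called.

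Estradiol in liver lowered 3 of 9 glycogen genes and raised 0, where 3.27% of all probes fell and 3.55% rose. They included Gys2, the liver glycogen synthase (-0.68 ± 0.17, adjusted p = 0.00902), and Ugp2, which makes its substrate UDP-glucose (-0.64 ± 0.12, adjusted p = 0.000149). The third, Gbe1 (-0.39 ± 0.13, adjusted p = 0.0467), passed in 3 of 6 alternatives. It was lost without background correction, with an offset of 50 and without the filter. Nothing particular to the list is read from its count. These genes were not refitted without the pair of low estradiol arrays. Ugp2 also fell under testosterone, by 0.52 ± 0.12 (adjusted p = 0.000743). Estradiol and testosterone are compared with the same blank arrays. Socs3, a feedback inhibitor of cytokine and insulin signals, rose by 0.78 ± 0.25 under estradiol (adjusted p = 0.0406) but passed in only 2 of 6 alternatives. By gonad type, 3 of 24 genes of gluconeogenesis and glycolysis were lower in the testis line and 0 higher. Over all liver probes 2.85% were lower and 0.548% higher, and nothing particular to the list is read from its count. The 3 genes were Pkm (-0.41 ± 0.08), Hk2 (-0.45 ± 0.11) and Pdk4 (-0.55 ± 0.14). Liver macrophage marker medians were 6.84 (testis line) and 7.27 (ovary line), and their part was not tested. Pkm lost its call under median centring (adjusted p = 0.129). In the 4 other lists, 0 passed for gonad type in liver by limma's adjusted p.

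Arrays of the same group also differed among themselves in a patterned way. Deviations from group means were compared for 21 pairs of members over 60 liver arrays by permutation within groups. Slc2a2 and Pklr deviated together (Pearson r = 0.76, Spearman rho = 0.63, adjusted permutation p = 0.00021 for both, from the smallest p that the permutations can give, 1e-05). Without the 2 arrays farthest from the median of Pklr r was 0.65. With slide effects removed over all 60 arrays, those 2 included, it was 0.73. Pck1 and Pklr deviated in opposite directions (r = -0.50, rho = -0.49, adjusted permutation p = 0.00315 and 0.00409). This relation was -0.43 without the 2 arrays farthest from the median of Pck1 and -0.47 with slide effects removed. The pair of low estradiol arrays was kept in both of these values. Fbp1 was opposed to Irs2 (r = -0.50, rho = -0.42, adjusted permutation p = 0.00315 and 0.0152) and to Pklr (r = -0.42, rho = -0.42, adjusted permutation p = 0.00373 and 0.0132). With slide effects removed these were -0.20 and -0.08 and did not pass. G6pc and Pck1, which both rose with testosterone, had r = 0.26 and rho = 0.24 (adjusted permutation p = 0.254 and 0.237).

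**Figure D3:**
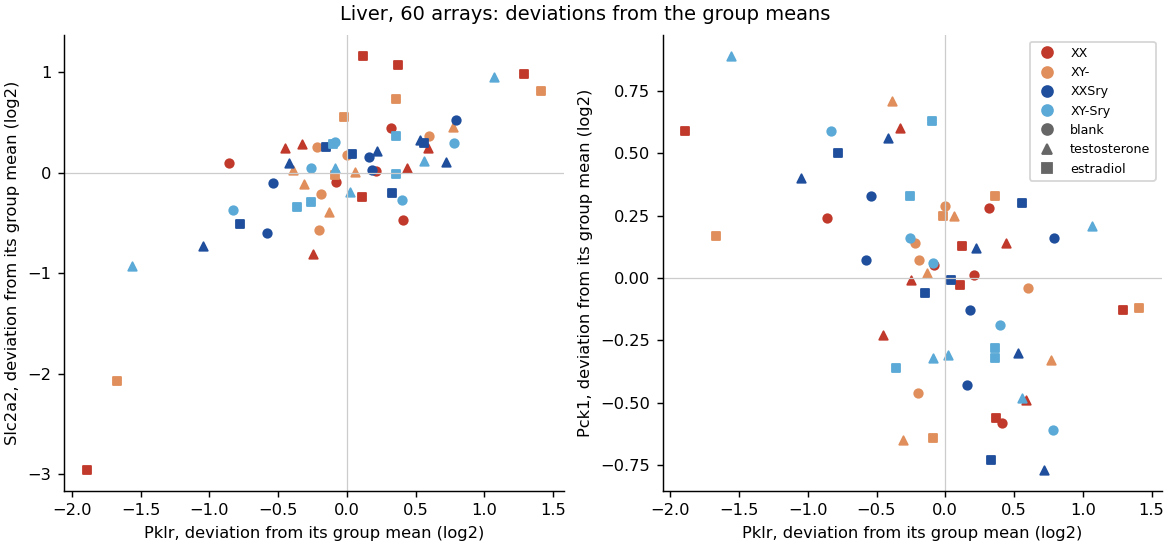
Deviation of each of 60 liver arrays from its group mean in Pklr (x axis, log2) against Slc2a2 (left) and Pck1 (right), with genotype as colour and capsule as symbol. Pklr and Slc2a2 run together (r = 0.76) with 2 estradiol arrays at the lower left, and Pklr and Pck1 run in opposite directions (r = -0.50).

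In adipose tissue estradiol lowered Irs2 and no other member. That made 1 of 6 members called, against 20.5% of 14636 probes (10.4% higher and 10.1% lower). Nothing particular to the members is read from this count. Over all probes testosterone had more calls in liver (19.1%) than in fat (4.75%). Estradiol had more in fat (20.5%) than in liver (6.82%). Testosterone and gonad type gave 0 of 6 calls by limma, with 4.75% (2.16% higher, 2.59% lower) and 7.34% (2.63% higher, 4.71% lower) of probes called, and no member had an unadjusted p under 0.05 in either. Irs2 ran from 9.03 to 10.45 in 17 blank arrays (median 9.69), from 8.77 to 10.34 in 19 testosterone arrays (median 9.52) and from 8.46 to 9.49 in 19 estradiol arrays (median 9.06). Estradiol arrays did not reach the upper part of the blank range. Estradiol minus blank was -0.65 ± 0.14, a 1.56-fold difference (adjusted p = 0.000352), with all 4 genotypes between -0.81 and -0.54 and both slides between -0.80 and -0.63. The ovary line gave -0.62 ± 0.19 (adjusted p = 0.0319, with 10.2% of probes called) and the testis line -0.67 ± 0.19 (adjusted p = 0.0147, with 10.1% called). The ovary line call was lost without XX B replicate 1 (-0.47, adjusted p = 0.198), 1 of only 3 blank XX arrays, and on leaving out replicates 2, 3 or 5 of XY- B, 1 or 4 of XY- E or 2 or 3 of XX E (adjusted p = 0.0543 to 0.0749). Testosterone minus estradiol was 0.47 ± 0.13 (adjusted p = 0.00956, with 17.3% of probes called). The estradiol call over all genotypes held in all 9 alternatives to the processing and without each single array. With muscle, lymph node and hepatocyte marker scores as covariates it was -0.68 (adjusted p = 3.61e-05). The median of 9 adipocyte markers was 11.74 under estradiol and 12.13 on blank capsules, and its part was not tested.

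**Figure D4:**
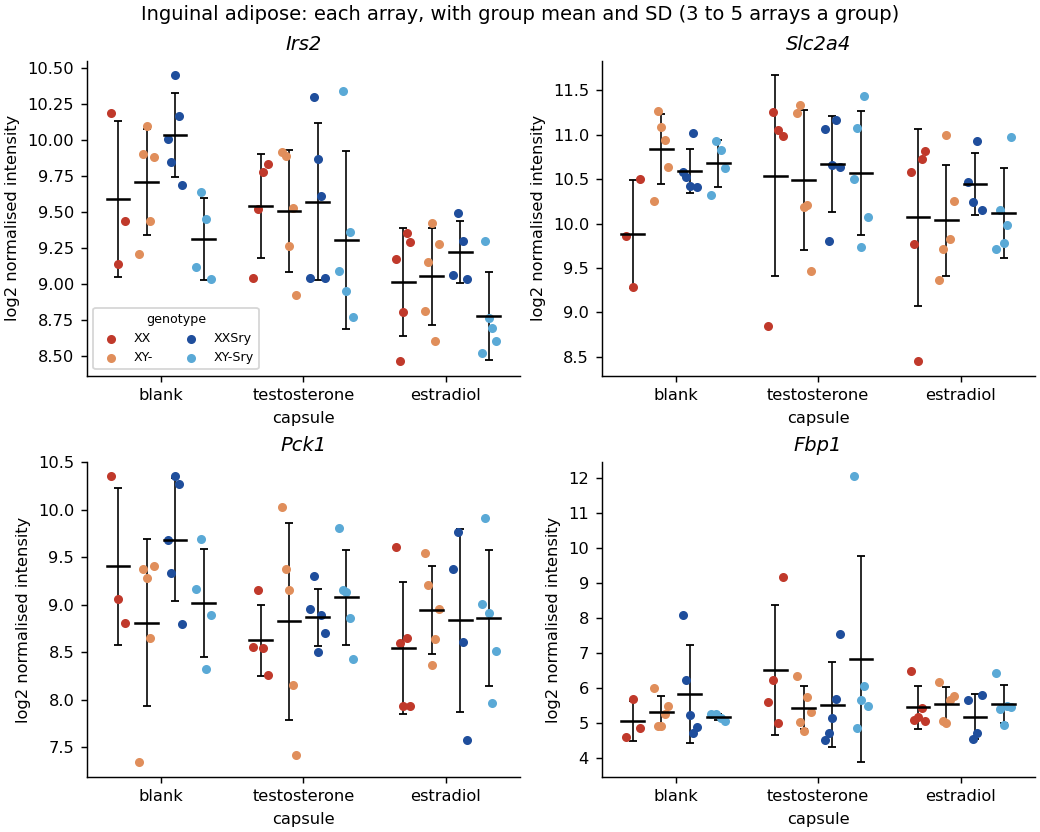
Log2 normalised intensity of 4 members in every inguinal adipose array (y axis) by capsule (x axis), with genotype as colour, and black bars for the group mean and SD of 3 to 5 arrays. Irs2 lies at 8.46 to 9.49 under estradiol against 9.03 to 10.45 on blank capsules, and Fbp1 stands far up in 1 testosterone array at 12.04.

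Slc2a4, the insulin-responsive transporter, was detected in every adipose array but did not pass for any factor. It ran from 9.29 to 11.27 in blank arrays (median 10.58), from 8.85 to 11.44 under testosterone (median 10.66) and from 8.45 to 11 under estradiol (median 10.15). Estradiol minus blank was -0.33 ± 0.21 (95% interval -0.76 to 0.10), testosterone minus blank 0.07 ± 0.21 (-0.36 to 0.50) and testis minus ovary line 0.20 ± 0.17 (-0.15 to 0.55). The testosterone value was -0.15 with other-tissue scores as covariates. Skeletal muscle also expresses Slc2a4, and the mean of 9 muscle markers ran from 6.37 to 14.01 over the adipose arrays, with medians of 12.93 on blank, 12.98 on testosterone and 10.41 on estradiol. All 9 muscle markers passed the filter, with detection from 47.27% of arrays (Myh1) to 100%. The part of muscle RNA in the Slc2a4 values was not tested beyond that fit.

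Pck1 in fat, where it makes glycerol for stored triglyceride, ran from 7.34 to 10.35 on blank capsules, 7.42 to 10.03 on testosterone and 7.58 to 9.91 on estradiol. Testosterone minus blank was -0.38 ± 0.23 (95% interval -0.84 to 0.08) and estradiol minus blank -0.44 ± 0.23 (-0.90 to 0.03). Irs1 was dim (5.07 to 6.58), with an estradiol difference of 0.01 (95% interval -0.23 to 0.24).

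G6pc and Fbp1 were detected in few adipose arrays, and their highest values lay in arrays with high hepatocyte marker signal. In XY-Sry T replicate 1 Fbp1 was 12.04, G6pc 8.99 and the 3 Slc2a2 probes 8.02 to 9.90. The mean of 7 tested hepatocyte markers was 13.46 in that array, against 5.13 to 10.78 in the other 54. XX T replicate 4 had Fbp1 at 9.18, G6pc at 6.50 and a hepatocyte mean of 10.65, and XXSry B replicate 1 had 8.08, 6.84 and 10.78. Of the 9 hepatocyte markers on the array, Fgb and Tat were each detected in 1.82% of adipose arrays and did not pass the filter, and Apoc3 was detected in 100%. Over the 55 arrays the deviations of G6pc and Fbp1 from group means ran together (r = 0.80, rho = 0.56, adjusted permutation p = 0.0087 and 0.009). Without the 2 arrays farthest from the G6pc median r was 0.64. Estradiol minus blank for G6pc was -0.36 ± 0.21 (adjusted p = 0.251), and without XY-Sry T replicate 1 it was -0.36 and passed (adjusted p = 0.027). That array lies in neither arm of this contrast, so leaving it out only narrowed the spread of the fit. G6pc was detected in 0 of 19 estradiol and 3 of 17 blank adipose arrays, and no estradiol effect is read from this pass. The part of hepatocyte RNA in these values was not tested beyond the covariate fit, which left the 2 genes without a call.

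**Figure D5:**
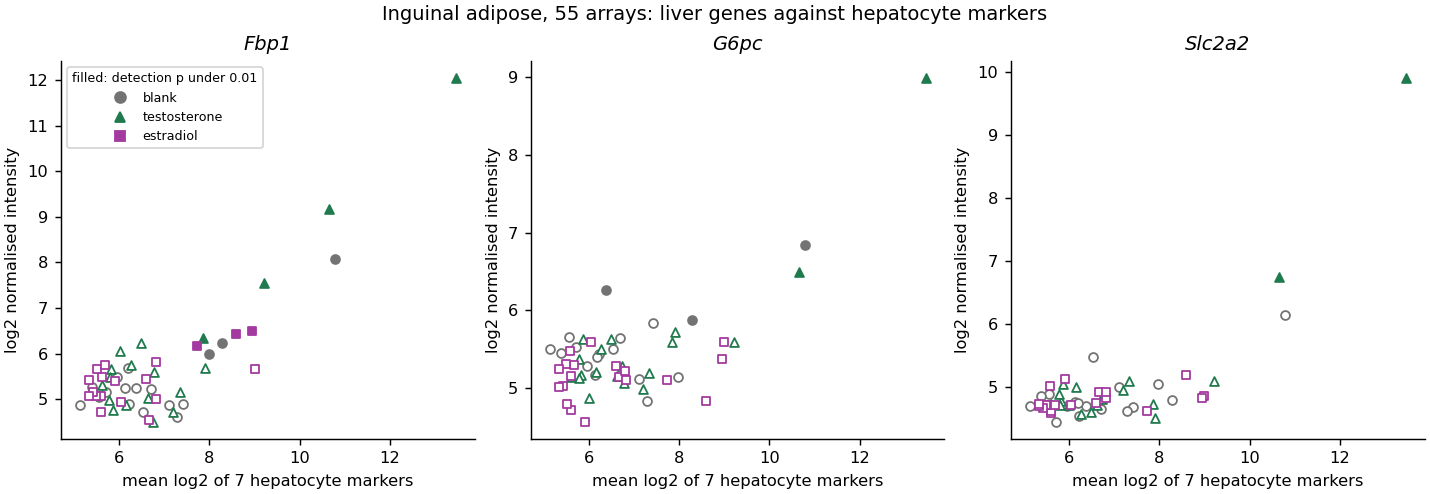
Log2 normalised intensity of Fbp1, G6pc and Slc2a2 in 55 adipose arrays (y axis) against the mean log2 of 7 hepatocyte markers (x axis), with capsule as symbol and filled symbols for detected values. The testosterone array with a hepatocyte mean of 13.46 holds the highest value of each gene, at 12.04, 8.99 and 9.90.

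In fat, Irs2 deviated within groups together with Pck1 (r = 0.46, rho = 0.44, adjusted permutation p = 0.00825 and 0.0119, 15 pairs) and with Slc2a4 (r = 0.46, rho = 0.54, adjusted permutation p = 0.0119 and 0.00435). Without the 2 arrays farthest from the Pck1 median the first relation was 0.39. Without the 2 arrays farthest from the Irs2 median the second was 0.55. Both relations passed there and with slide effects removed (0.45 and 0.48). Over the adipose arrays the mean of muscle markers ran from 6.37 to 14.01 and that of lymph node markers from 5.05 to 11.17. The part of such RNA in these relations was not tested.

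Of 38 tested adipose genes of insulin receptor signalling, estradiol raised 2 and lowered 5 (median -0.13, against -0.016 over all probes), or 1 and 3 under median centring. Over all probes 20.5% were called (10.4% higher and 10.1% lower), and nothing particular to the lists is read from their counts. Akt2, a kinase on the route to GLUT4, fell by 0.69 ± 0.21 (adjusted p = 0.0134), and Trib3, an inhibitor of AKT kinases, rose by 0.90 ± 0.15 (adjusted p = 5.57e-06). Grb14, an adaptor that restrains the receptor, fell by 0.94 ± 0.18 (adjusted p = 0.000114). Of 19 regulators of glucose genes, 2 rose and 6 fell, and Ppargc1a, a coactivator of mitochondrial genes, fell by 1.20 ± 0.23 (adjusted p = 0.000111). Of 7 other glucose transporters, Slc2a3 rose by 1.23 ± 0.19 (adjusted p = 1.41e-06) and Slc2a13, a myo-inositol carrier, fell by 1.24 ± 0.17 (adjusted p = 2.4e-07). Adrb3, the beta-adrenergic receptor of fat cells, fell by 0.68 ± 0.15 (adjusted p = 0.000637). Of 27 genes of gluconeogenesis and glycolysis, 1 rose and 4 fell, or 1 and 0 under median centring. Of 11 glycogen genes 0 rose and 2 fell, among them Pygl, the liver-type glycogen phosphorylase (-0.60 ± 0.13, adjusted p = 0.00053). Slc2a3, the high-affinity transporter GLUT3, also rose with testosterone by 0.87 ± 0.19 (adjusted p = 0.0024), and it was lower in the testis line (-0.60 ± 0.15, adjusted p = 0.00491). Slc2a1, the GLUT1 transporter, was -0.38 ± 0.09 in the testis line (adjusted p = 0.00286). Of the 19 regulators, 4 were higher and 1 lower in the testis line, where 2.63% of all probes were higher and 4.71% lower. Under median centring 3 regulators were higher and 0 lower, and without the filter 2 and 1. Mean macrophage marker signal was also higher on estradiol (median 10.13 of 5 markers) than on blank capsules (9.51), and brown adipocyte marker signal was lower (9.27 against 11.10, 4 of 6 markers tested). The muscle marker median was 10.41 on estradiol against 12.93 on blank capsules, the mammary epithelium median 9.99 against 7.99 (8 markers) and the lymph node median 9.55 against 8.53 (9 markers). With muscle, lymph node and hepatocyte scores as covariates, 10 of the 38 insulin signalling genes were called, 2 higher and 8 lower. Mammary epithelium markers ran from 5.44 to 8.84 in the testis line and from 8.41 to 10.87 in the ovary line (8 markers). The part of the other markers in these gene differences was not tested.

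The effects in the tissues were then compared directly, as the liver effect minus the adipose effect in 1 fit over the arrays of both tissues. Of 5 members tested in both tissues, 1 differed for gonad type (4.27% of 10761 probes), 0 for testosterone (7.27%) and 0 for estradiol (9.99%). Pck1 and Irs2 were detected in every array of both tissues. Fbp1 was detected in 10 and Irs1 in 8 of 55 adipose arrays, so they can show little in fat. G6pc was the member with a call: its gonad effect was -0.71 in liver and 0.23 in fat, a difference of -0.93 ± 0.27 (adjusted p = 0.0283). In fat this probe was detected in 5 of 55 arrays, among them the 3 with the highest hepatocyte marker signal, so most of its values lie at background. The call therefore restates the liver effect beside a probe that can show little in fat, and it does not show how gonad type acts on G6pc there. The testosterone effect on Pck1 was 0.37 in liver and -0.38 in fat, a difference of 0.75 ± 0.26 (adjusted p = 0.0618). The estradiol effect on Pck1 was 0.31 and -0.44, a difference of 0.74 ± 0.26 (adjusted p = 0.0529). With slide as a block both passed, at 0.91 (adjusted p = 0.00937) and 0.87 (adjusted p = 0.0195). They also passed on leaving out 1 of 11 arrays for testosterone (0.78 to 0.84, adjusted p = 0.0235 to 0.0492) and 1 of 23 for estradiol (0.74 to 0.84, adjusted p = 0.019 to 0.0497), among them XY-Sry B replicate 4 in liver and XY-Sry T replicate 1, XY-Sry B replicate 3 and XX B replicate 3 in fat for both. These comparisons of the hormones share the blank arrays. Irs2 fell with testosterone in liver and with estradiol in fat, but neither tissue difference passed, at -0.48 ± 0.22 for testosterone (adjusted p = 0.192) and 0.42 ± 0.22 for estradiol (adjusted p = 0.256). The hormone to which Irs2 responds is therefore not shown to differ between the tissues. For G6pc the testosterone difference was 0.85 ± 0.34 (adjusted p = 0.116), and it was 1.04 without the adipose array XY-Sry T replicate 1 (adjusted p = 0.0153).

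Among all tested genes, those whose 12 group means ran most like a called member were listed as a description. In liver they were Brp17 (r = 0.91), Hist1h2bn (0.904) and 2310076L09Rik (0.899) for G6pc, and Tm4sf11 (0.92), Wipi1 (0.878) and Tssc1 (0.86) for Pck1. For Pklr they included A530046H20Rik (0.908) and Elovl6, a fatty acid elongase (0.904). For Irs2 they were Ganc (0.97), 2310035K24Rik (0.954) and Ube2l6 (0.945). In adipose tissue Ugt8 (0.927), Trpt1 (0.924) and Lmo6 (0.921) ran most like Irs2. Group means share their arrays and 12 points are few.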

How the data were processed

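Per the file headers, the deposited tables hold a detection p-value and a mean bead signal for each probe and array, the latter a linear intensity. The submitters' processing notes name lumi, with no version, but array medians differed and the deposited intensities were taken as not normalised. The array version and the scanner settings are not given in the sources used here, and all columns of bead standard errors (60 liver and 55 adipose) were not used. Members and gene lists were chosen with earlier results of these data known.

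Each tissue was processed apart in limma 3.58.1 under R 4.3.3: normexp background correction from the detection p-values, an offset of 16, which understates differences of dim probes, quantile normalisation and log2. Probes with detection p under 0.01 in at least 5 liver or 3 adipose arrays were tested (11317 and 14636). A model with 12 group means per tissue was fitted with lmFit and eBayes, contrasts weighted groups equally, and p-values were adjusted (Benjamini-Hochberg) over all tested probes of a contrast. Tissue differences came from 1 fit of 24 group means with arrays taken as independent, since the labels do not tie liver and fat arrays to an animal. The probe with the highest mean signal spoke for a gene. Named pathway genes were taken from the 3 called genes with the largest rise and the largest fall per list, contrast and tissue, and the 3 genes nearest in group means to each called member were named, except 1 that is not reported here. Relations used 100000 permutations within groups. The fit was tested on simulated data. Replicate numbers follow accession order and only name an array. Each tissue lay on 8 slides, and within-slide values use the few slides that held both arms. Alternatives were median centring, no background correction, an offset of 50, no filter, slide as a block, other-tissue scores, doubted arrays left out and each array left out, with joint normalisation, separate spreads and a wider filter for the tissue fit. The number of arrays limits the precision.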

Additional observations from a re-analysis of the deposited data

Results flagged for a closer look

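In groups of 4 or 5 arrays, a gap test (Dixon, 95%) marked 12 of 150 member groups in which 1 array stood apart, where chance alone marks about 1 in 20. In adipose tissue these were Fbp1 at 12.04 in XY-Sry T replicate 1 (others 4.87 to 6.05) and at 6.49 in XX E replicate 1 (others 5.07 to 5.42). G6pc was 8.99 in XY-Sry T replicate 1 (others 4.87 to 5.21) and 6.84 in XXSry B replicate 1 (others 5.50 to 5.88). Slc2a4 was 8.85 in XX T replicate 1 (others 10.99 to 11.26) and 11.02 in XXSry B replicate 4 (others 10.41 to 10.58).

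In liver, Slc2a2 was 8.04 in XY- E replicate 2 (others 10.09 to 10.92), 9.87 in XX T replicate 5 (others 10.73 to 10.96) and 9.33 in XXSry T replicate 5 (others 10.16 to 10.39). Pklr was 8.66 in XY- B replicate 2 (others 7.84 to 8.06), Fbp1 was 11.33 in XY-Sry B replicate 3 (others 11.97 to 12.17), and Irs2 was 8.99 in XY-Sry T replicate 1 (others 7.49 to 7.78).

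The gonad effect on G6pc differed between liver and adipose tissue by -0.93 (limma adjusted p = 0.0283), in the direct test of that difference. G6pc was detected in 5 of 55 adipose arrays, so most adipose values lie at background and the difference does not show a gonad effect in fat.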

How the results depend on the processing

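The testosterone calls of G6pc, Pklr and Irs2 in liver and the estradiol call of Irs2 in adipose tissue passed under every alternative tried and without each single array. No paired analysis was possible because the labels carry no replicate numbers. Alternatives that left out both liver arrays without detected Pklr, left out both doubted adipose arrays (XX E replicate 1 and XY-Sry T replicate 1) or removed slide effects from the relations were chosen after seeing the data. The liver arrays that go against their labels were singled out by earlier results, so leaving them out was also not blind to the data.

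Members called for estradiol in liver were 0, and 2 under median centring, with slide as a block and without both liver arrays against their labels, and 1 without background correction or with an offset of 50. Members called for gonad in liver were 1, and 0 under median centring and without the filter. Members called for estradiol in adipose tissue were 1, and 2 without both doubted arrays. Tissue differences of testosterone were 0, and 1 with probes tested in at least 1 tissue or slide as a block and 2 without both doubted arrays. Those of estradiol were 0, and 1 under these 3 settings. The 4 liver relations became 2 with slide effects removed. With each array left out, counts for testosterone, estradiol and gonad ran from 3 to 4, 0 to 2 and 0 to 1 in liver, 0 to 0, 1 to 2 and 0 to 0 in adipose tissue, and 0 to 2, 0 to 1 and 1 to 1 for tissue differences.

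Turned signs were all of values without a call. In liver they were Fbp1 for testosterone (-0.00132 centred, -0.07 slide block) and estradiol (-0.15, -0.01), Irs1 for testosterone (0.03 centred, 0.0043 offset 50, 0.14 slide block, 0.00376 without the arrays against their labels) and estradiol (0.07 slide block), and Slc2a2 for gonad (-0.08 without the arrays lacking Pklr). In adipose tissue they were G6pc for testosterone (-0.21 slide block, -0.14 covariates, -0.15 without the doubted arrays), Slc2a4 for testosterone (-0.15 covariates), Fbp1 for estradiol (-0.28 slide block) and Fbp1 for gonad (-0.14 covariates, -0.04 without the doubted arrays). Among tissue differences they were Irs1 for testosterone (0.04 slide block) and gonad (0.04 normalised together), and Fbp1 for estradiol (0.26 slide block, 0.02 without the doubted arrays) and gonad (0.10). Single arrays turned Irs1 (-0.06 to 0.05, testosterone), Fbp1 (-0.02 to 0.09, estradiol) and Irs2 (-0.02 to 0.06, gonad) in liver, and G6pc (-0.15 to 0.11) and Slc2a4 (-0.01 to 0.21) for testosterone, Irs1 (-0.04 to 0.05, estradiol), Fbp1 (-0.09 to 0.28) and Irs2 (-0.08 to 0.02) for gonad in adipose tissue, and Fbp1 in tissue differences (-0.19 to 0.02 for estradiol, -0.22 to 0.15 for gonad). The cause was not tested.

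Median centring changed the split of all calls from 925 higher of 2162 to 226 of 1370 (liver testosterone), 402 of 772 to 119 of 1392 (liver estradiol) and 385 of 1075 to 173 of 740 (adipose gonad). Slides lacked some capsules, so hormone and slide were partly confounded. Probes near background, such as Irs1 in both tissues and G6pc in fat, can show only large differences.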
